A study of Mus musculus with 34 samples.

Results

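The comparison described here is Krt17 knockout footpad skin at T6 against Krt17 knockout footpad skin at T3. All genes with 1 FPKM or more (fragments per kilobase of transcript, scaled to the number of mapped fragments) in at least 1 of these 2 groups were compared, which left 12988 of the 47633 genes in the footpad table. Both groups came from mice that lack the keratin gene Krt17, aged 8 to 10 weeks, whose footpads had received 40 Gy of ionizing radiation. They differ in the time of collection, which the labels call T3 and T6 without a unit. Each group holds 2 of the 34 samples of the series, and the footpad part has 16 samples in all. The neighbouring groups are the not irradiated knockout (T0), the knockout at T9, the not irradiated wild type (T0), and the wild type at T3, T6 and T9 after the same 40 Gy. Only the authors' mean of each group was used, so single samples, their spread and the read depth behind a value are not known. No test, SD or p-value could be computed, and every difference is given as a size without a replicate check.

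Keratin filaments are built from pairs of one type I and one type II keratin, and the pair changes as keratinocytes move outward. Basal cells make Krt5 and Krt14, and the layers above make Krt1 and Krt10, with Krt2 and Krt9 added in thick, hairless skin such as the sole. After injury, interfollicular keratinocytes switch on Krt6a, Krt6b, Krt16 and Krt17, the wound or stress keratins. The same activated state is known for antimicrobial peptides, for the alarmins S100a8 and S100a9, for EGF-family growth factors and for cornified envelope precursors of the small proline-rich and Lce3 families. Krt17 is both a filament protein of this state and a keratin of hair follicles.

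The targeted gene was measured first. In knockout footpad Krt17 (chr11:100256217-100261029, minus strand, mm10) stood at 18.2, 26.2, 68.1 and 58.8 FPKM across T0, T3, T6 and T9. In wild type it stood at 124, 92.6, 183 and 835 FPKM. The knockout was thus below the wild type at each of the 4 time points, though not at 0. Krt16 and Krt14, type I keratins with closely related sequence, lie in the same cluster, and how reads that fit several of these genes were assigned is not given in the sources used here. The knockout signal at Krt17 is therefore uncertain, as are the splits between Krt14 and Krt16 and between Krt6a and Krt6b. The same holds for the splits within the stefin, small proline-rich, Lce and haemoglobin families. The label of the tissue was checked against markers of footpad skin. Krt9, the keratin of palm and sole, was at 326 FPKM at T3 and 163 FPKM at T6 in knockout, and Aqp5, the water channel of eccrine sweat glands, was at 168 and 115 FPKM. Cftr and Dcpp1, 2 further genes of the eccrine list, were listed at 0 in both groups. FPKM summed to 993789 at T3 and 1005220 at T6 in knockout, and to 916989 in wild type at T3, the lowest of the 8 groups. Krt10 and Krt2 were listed at 0 in wild type at T3, against 15742 and 15697 FPKM in wild type at T0. These zeros enter the low sum.

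Promoter sequence is shown for 4 genes that were higher at T6 and for 1 that was lower, chosen among the genes described here that have a RefSeq entry. They were picked by hand and each printed line holds at least 1 match. The lines therefore do not show how common the motifs are. Each line gives up to 250 bases before the RefSeq transcription start, from RefSeq on GRCm38.p6, cut off before the first exon that GENCODE release M21 annotates there. The sequences run 5′ to 3′ on the strand of the gene, with motif matches in capitals. The motifs searched were the TATA box (TATAAA), the AP-1 motif (TGANTCA) and a C/EBP motif (TTNNGCAA), on both strands, and no 2 of the printed matches overlap. They are Slpi on the minus strand (chr2:164356508-164356757), S100a9 on the minus strand (chr3:90695722-90695971), Epgn on the plus strand (chr5:91027267-91027463), Sprr1a on the minus strand (chr3:92485896-92486131) and Mt4 on the plus strand (chr8:94136954-94137196).
Slpi: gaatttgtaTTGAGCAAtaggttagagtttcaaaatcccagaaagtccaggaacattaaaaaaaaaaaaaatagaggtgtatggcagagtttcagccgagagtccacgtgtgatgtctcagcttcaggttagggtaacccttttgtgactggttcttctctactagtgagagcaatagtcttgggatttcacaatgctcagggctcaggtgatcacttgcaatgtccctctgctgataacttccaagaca
S100a9: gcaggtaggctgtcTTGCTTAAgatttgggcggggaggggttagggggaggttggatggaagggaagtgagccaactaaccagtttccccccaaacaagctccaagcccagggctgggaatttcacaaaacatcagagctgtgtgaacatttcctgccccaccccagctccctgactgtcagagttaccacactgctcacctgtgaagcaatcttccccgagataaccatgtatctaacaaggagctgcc
Epgn: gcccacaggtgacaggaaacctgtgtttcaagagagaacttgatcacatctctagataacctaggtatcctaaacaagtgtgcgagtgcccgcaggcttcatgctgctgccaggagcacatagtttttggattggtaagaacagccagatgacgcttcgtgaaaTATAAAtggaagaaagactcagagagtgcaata
Sprr1a: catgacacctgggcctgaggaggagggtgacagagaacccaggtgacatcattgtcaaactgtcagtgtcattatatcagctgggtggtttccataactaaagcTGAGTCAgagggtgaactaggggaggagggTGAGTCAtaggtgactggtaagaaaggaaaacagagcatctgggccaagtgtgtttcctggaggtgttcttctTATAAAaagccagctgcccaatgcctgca
Mt4: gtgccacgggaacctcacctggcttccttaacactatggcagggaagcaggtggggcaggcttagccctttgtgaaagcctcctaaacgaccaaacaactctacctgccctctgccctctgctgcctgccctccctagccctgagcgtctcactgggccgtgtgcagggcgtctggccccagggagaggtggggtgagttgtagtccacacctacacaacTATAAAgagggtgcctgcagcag
The Sprr1a stretch holds the AP-1 letters at -146 and -116 and a TATA box at -43. Positions are counted from the RefSeq transcription start, which lies beyond the end of the printed Sprr1a, Epgn and Mt4 lines. Epgn has a TATA box at -86 and Mt4 has one at -30. Slpi holds the C/EBP letters at -241 and S100a9 holds them on the opposite strand at -236. Over the 250 bases before the start, TATAAA was found in 12.97% of 27025 RefSeq promoters and in 7.08% of the 9690 that belong to compared genes. It was found in 19.3% of 135 promoters of genes 2-fold or more higher at T6 and in 26.7% of 86 promoters of genes 2-fold or more lower. The AP-1 letters were found in 6.87% of all promoters, in 4.88% of those of compared genes, in 9.63% of the promoters of the higher genes and in 9.30% of those of the lower genes. For C/EBP the 4 shares were 9.55%, 7.56%, 12.6% and 12.8%. Of the 12 named genes with the largest positive ratios, 7 had a promoter entry. Among these 7, TATAAA was in 4, the C/EBP letters in 2 and the AP-1 letters in 0. Sprr1a is not one of the 12. These matches describe the letters in the window and were not tested as binding sites.

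Changes are given as the log2 ratio of (mean FPKM + 1), T6 over T3, a scale that understates the change of genes with low FPKM. Of the 12988 genes, 234 (1.8%) were 2-fold or more higher at T6 and 160 (1.23%) were 2-fold or more lower. These 2 shares are the baseline for the counts of gene lists given below. A positive ratio was found for 5364 of the 12988 genes. The median over all genes was -0.06. Among the higher genes 58 differed 4-fold or more and 22 differed 8-fold or more, against 31 and 12 of the lower genes. The FPKM of the 234 higher genes summed to 10664 at T3 and 57793 at T6. The 160 lower genes summed to 17704 at T3 and 6610 at T6.

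**Figure D1:**
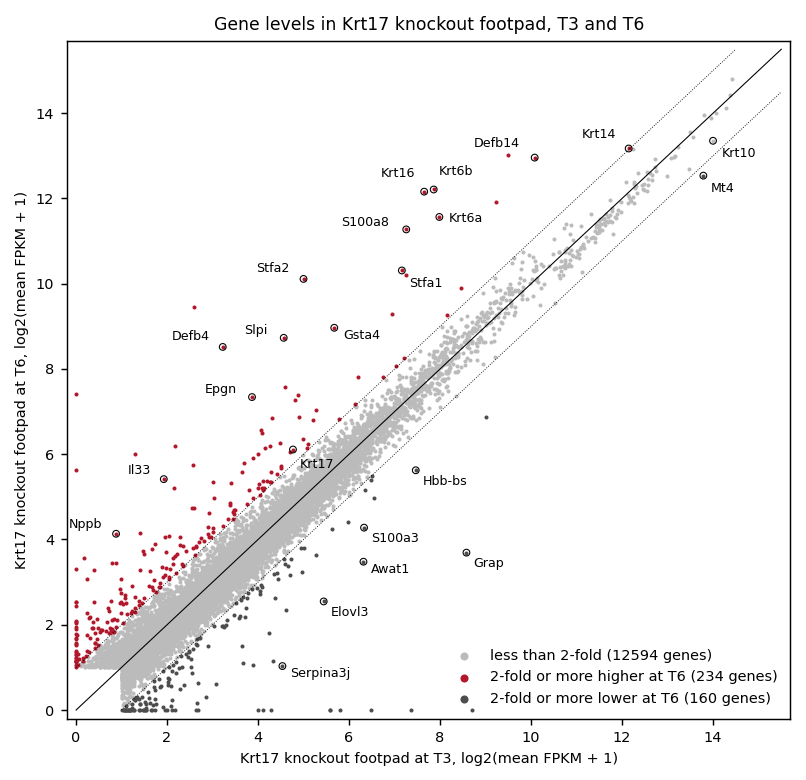
Each point is 1 of 12988 genes, with log2(mean FPKM + 1) in Krt17 knockout footpad at T3 on the x axis and at T6 on the y axis; the solid line marks equality and the dotted lines 2-fold. The 234 genes above the upper dotted line include Krt6a, Krt6b, Krt16, stefins and alarmins far from it. Most genes on both sides had low FPKM. The median was 2.60 at T3 and 9.82 at T6 for these 234 genes. For the 160 genes below the lower line it was 4.56 and 0.625.

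The largest gains in absolute FPKM came from envelope, keratin and antimicrobial genes. BC100530, a stefin A gene, stood at 716 FPKM at T3 and 8318 FPKM at T6, and Defb14, a beta-defensin that kills bacteria, at 1081 and 7957 FPKM. Krtdap, a secreted protein of differentiating keratinocytes, stood at 21804 and 28751 FPKM, a log2 ratio of 0.40. Fabp5, the epidermal fatty acid binding protein, stood at 4809 and 9168 FPKM (0.93). The largest losses were Mt4, Krt10 and Krt2. Mt4, the metallothionein of stratified epithelia whose promoter is printed above, stood at 18518, 14133, 5935 and 15030.2 FPKM across T0, T3, T6 and T9 (log2 ratio -1.25, T6 over T3), lowest at T6. Rps19, Rps27 and Rpl13a, which encode ribosomal proteins, came next, at 8092 and 5874 FPKM for Rps19, 19934 and 17934 FPKM for Rps27, and 5969.9 and 4626 FPKM for Rpl13a.

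All 4 wound keratins were 2-fold or more higher at T6, with a median log2 ratio of 3.97. This count and median include Krt17, whose signal in knockout is uncertain, as given above. Krt16 (chr11:100246091-100248902, minus strand), the type I partner of the Krt6 proteins, stood at 49.5, 199.97, 4574 and 1577 FPKM across T0, T3, T6 and T9 in knockout. Krt6b (chr15:101676023-101680287, minus strand) stood at 20.1, 231, 4738 and 1191 FPKM, and Krt6a (chr15:101689910-101694307, minus strand) at 66.5, 252, 3031 and 668 FPKM. For all 3 genes T6 was the highest of the 4 knockout groups, T9 the second highest and T0 the lowest. Their log2 ratios, T6 over T3, were 4.51, 4.35 and 3.58. Krt17 itself had a ratio of 1.34 on its much lower level. In wild type the step from T3 to T6 was small for the same genes: Krt16 stood at 407 FPKM at T3 and 677 FPKM at T6, Krt6b at 369 and 589, and Krt6a at 353 and 534. Wild-type levels like those of the knockout at T6 came at T9, with 4938 FPKM of Krt16, 4693 of Krt6b and 2997 of Krt6a.

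The keratins of normal epidermis moved far less, and not all in one direction. Krt14, the basal type I keratin, was at 4529 FPKM at T3 and 9229 FPKM at T6 (log2 ratio 1.03), while its type II partner Krt5 was at 1927 and 2075 FPKM (0.11). Of 15 basal keratinocyte genes, Krt14 alone was 2-fold or more higher and none was 2-fold or more lower, with a median of 0.11. Krt14 passed 2-fold narrowly, and the split of reads between it and Krt16 is uncertain, as given above. Krt15, a keratin of quiescent basal cells, stood at 125 FPKM at T3 and 73.0 FPKM at T6. None of the 13 suprabasal genes compared passed 2-fold, but the keratins among them split. Krt1 was level at 6774 and 6877 FPKM. Krt10 was at 16376 and 10460.5 FPKM, Krt2 at 11353 and 6628 FPKM, and Krt9 fell just short of 2-fold lower with a log2 ratio of -0.996. These 3 keratins were all lower at T6 than at T0 too, when they stood at 14341, 12261 and 335 FPKM.

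The cornified envelope is the crosslinked protein shell of dead surface cells, and stefins, small proline-rich proteins, loricrin and Lce proteins are its substrates. Stefins are inhibitors of cysteine proteases, and all 6 genes compared between Stfa1 and Stfa3 (chr16:36276951-36455392) were 2-fold or more higher. Stfa2 stood at 14.7, 31.0, 1106 and 175 FPKM across T0, T3, T6 and T9, and Stfa1 at 161, 142, 1269.5 and 401 FPKM. Stfa3 stood at 790, 595, 3877 and 3089 FPKM. T6 was the highest knockout group for each, and the T3 values of Stfa1 and Stfa3 were below those at T0. The log2 ratios were 5.11 for Stfa2, 3.54 for BC100530, 3.18 for BC117090, 3.15 for Stfa1, 2.70 for Stfa3 and 2.08 for Gm4758, which was listed at 0 at T3, so that its ratio is no measure of a fold.

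Small proline-rich genes divided by member. Of 12 compared, 5 (41.7%, against 1.8% of all genes) were 2-fold or more higher and none was 2-fold or more lower. Sprr1a, a crosslinking protein known to be induced by injury, stood at 73.4, 152, 1181 and 293 FPKM across T0, T3, T6 and T9 (log2 ratio 2.95, T6 over T3). Sprr2i stood at 4.01, 23.2, 189.8 and 15.1 FPKM (2.98) and Sprr2k at 3.81, 15.6, 93.5 and 13.8 FPKM (2.51). All 3 peaked at T6 within the knockout. Sprr2a3 did not: it was at 2.31 FPKM at T3, 13.8 at T6 and 183 at T9. Sprr2b and Sprr2d, at 247 and 192 FPKM at T3, were at 229.9 and 166 FPKM at T6. The Lce genes divided by subfamily. The 6 Lce3 genes, the subfamily known to be induced by barrier injury, had log2 ratios between 0.95 and 2.34, and 4 of them passed 2-fold. The 14 Lce1 genes, which serve normal differentiation, had ratios between -0.47 and 0.70. Lce3e stood at 19.0, 28.7, 116 and 218 FPKM and Lce3d at 18.1, 35.8, 109.8 and 304 FPKM, so in contrast to the wound keratins these genes were higher again at T9. Loricrin (Lor), the main granular layer precursor, was at 12138 FPKM at T3 and 11102 FPKM at T6, and none of the 14 granular and filaggrin-type genes compared passed 2-fold. Tgm3, a transglutaminase that crosslinks the envelope, came nearest at 80.8 and 155 FPKM (0.93). Rptn and Hrnr were listed at 0 at T3 in both genotypes and were not compared.

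**Figure D2:**
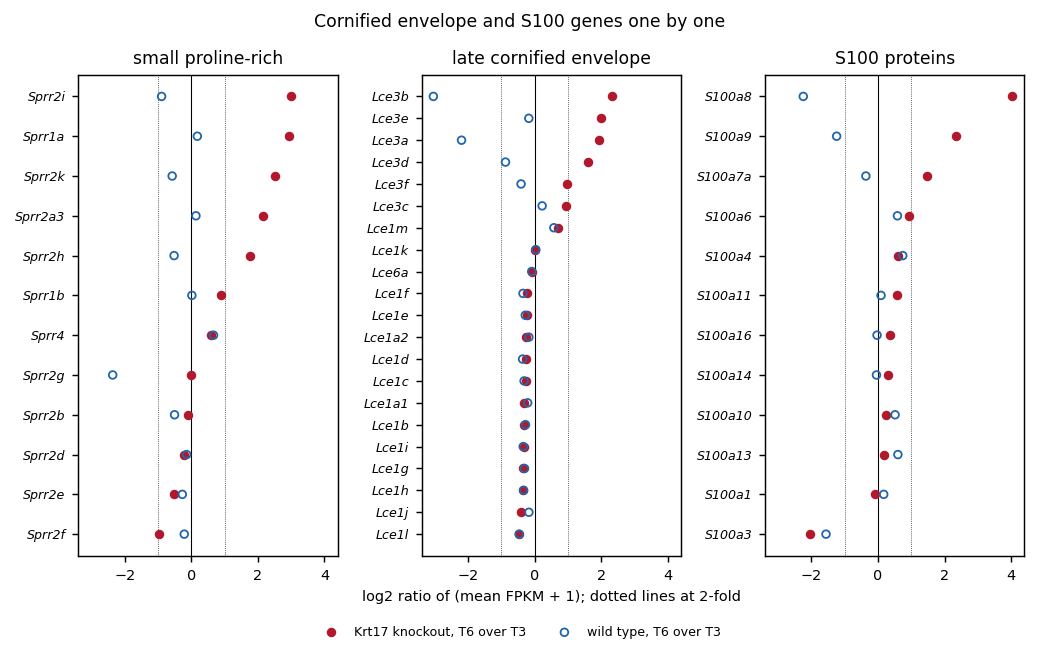
The log2 ratio of (mean FPKM + 1), T6 over T3, is on the x axis for each small proline-rich, late cornified envelope and S100 gene compared, in Krt17 knockout (filled) and wild-type footpad (open), with dotted lines at 2-fold. In knockout 5 of 12 small proline-rich genes, 4 of 21 late cornified envelope genes and 3 of 12 S100 genes lie past the right dotted line, and S100a3 lies past the left one. Over all 12988 genes, 1.8% were 2-fold or more higher and 1.23% lower.

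Among genes at 5 FPKM or more in either group, without numbered gene models or names that resemble accessions, Defb4 (chr8:19198706-19201545, plus strand), an inducible beta-defensin, had the largest ratio; it stood at 4.16, 8.34, 365 and 60.8 FPKM across T0, T3, T6 and T9 in knockout (log2 ratio 5.29, T6 over T3). Slpi (chr2:164354070-164389095, minus strand), an inhibitor of neutrophil elastase, stood at 4.94, 22.6, 424 and 83.4 FPKM (4.17). Both were at their lowest at T0 and their highest at T6. Of 19 antimicrobial genes compared, 5 (26.3%, against 1.8% of all genes) were 2-fold or more higher and none was 2-fold or more lower. The others that passed were Defb14, Saa1 and Pglyrp3, a peptidoglycan recognition protein. Defb8, another beta-defensin, was listed at 0 at T6, so by the rule for zeros it was treated as missing and is not in these counts. It stood at 239, 33.0, 0 and 3.59 FPKM across T0, T3, T6 and T9 in knockout. In wild type it stood at 290, 5.92, 0.919 and 0 FPKM. With the zero kept, its knockout log2 ratio is -5.09, past 2-fold lower. Lcn2, a siderophore-binding protein, did not follow them, at 32.6 FPKM at T3 and 25.3 FPKM at T6. The alarmin S100a8 (chr3:90668978-90670035, plus strand) stood at 22.1, 152, 2476 and 202 FPKM, and its partner S100a9 at 11.04, 123, 623 and 134 FPKM. Both were higher at T3 than at T0, highest at T6 and back near the T3 level at T9. S100a3, a hair cuticle protein, was the 1 S100 gene of 12 to pass 2-fold in the other direction, at 112, 79.4, 18.4 and 16.1 FPKM.

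S100a8 and S100a9 are made by neutrophils as well as by activated keratinocytes, so the neutrophil list is given beside them. Of its 18 genes 5 reached 1 FPKM in either group, and they summed, with the rest of the list, to 297 FPKM at T3 and 3113 FPKM at T6, nearly all from S100a8 and S100a9. Mpo was at 0.204 FPKM at T3 and listed at 0 at T6, and Elane was listed at 0 in both. Ly6g was at 0.0692 and 0.0446 FPKM, Ngp at 0.0733 and 0.0490 FPKM, and Ltf at 0.256 and 0.0715 FPKM. Cxcr2 was at 2.87 and 1.95 FPKM. Il1r2, which other cells also express, was at 16.6 and 9.92 FPKM. Stfa2l1, a stefin of neutrophils, was listed at 0 at T3 and at 1.45 FPKM at T6, and with S100a8 and S100a9 it made up the 3 of 5 compared genes that were 2-fold or more higher. The other 13 genes of the list stayed under 1 FPKM in both groups. The part of neutrophils in the S100a8 and S100a9 difference was not tested. In tissue RNA such as this, a change in the number of cells of a type and a change in RNA per cell cannot be told apart.

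Growth factors and cytokines that keratinocytes release gave a few large ratios among many small ones. Epgn (chr5:91027464-91035215, plus strand), which encodes the EGF receptor ligand epigen, stood at 1.89, 13.6, 161 and 16.3 FPKM across T0, T3, T6 and T9 in knockout (log2 ratio 3.47, T6 over T3). Areg, the ligand amphiregulin, stood at 4.81, 5.06, 25.9 and 4.93 FPKM (2.15). Both returned at T9 to about the level of T3. The other EGF axis genes did not pass 2-fold. Hbegf was at 5.40 and 10.4 FPKM, Tgfa at 3.84 and 4.23 FPKM, Ereg at 38.1 and 22.1 FPKM, and the receptor Egfr at 7.30 and 7.58 FPKM. Il33, a nuclear cytokine released by damaged epithelium, was at 1.49, 2.81, 41.7 and 10.4 FPKM (3.49). It was the 1 gene of 13 in the IL-1 family to pass 2-fold upward, while Il1f10, an IL-1 family member, passed it downward at 31.0 and 12.9 FPKM. Il1a was at 14.1 and 12.8 FPKM. Il24, a cytokine of the IL-20 group, was at 0.186 FPKM at T3 and 7.48 FPKM at T6 (2.84), and Il4ra, the receptor chain for IL-4 and IL-13, at 12.6 and 27.3 FPKM (1.06). Nppb, a natriuretic peptide, was at 0.408, 0.839, 16.6 and 2.33 FPKM (3.26), and Gsta4, a glutathione transferase for lipid peroxidation products, at 30.9, 50.1, 499 and 76.1 FPKM (3.29).

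Chemokine genes were mostly at low FPKM. Of 22 compared, 7 (31.8%, against 1.8% of all genes) were 2-fold or more higher and none was 2-fold or more lower, with a median of 0.36. In wild type, T6 over T3, 8 of 21 were 2-fold or more higher, against 2.32% of all genes there, with a median of 0.79. In knockout Ccl2, which attracts monocytes, stood at 1.64 FPKM at T3 and 8.79 FPKM at T6 (log2 ratio 1.89), and Ccl8 at 5.18 and 13.3 FPKM (1.21). Cxcl1, which attracts neutrophils, was at 6.84 and 7.66 FPKM, and Ccl20 at 6.196 and 3.36 FPKM. None of 19 NF-kB and TNF genes, and none of 24 interferon genes, passed 2-fold, with medians of 0.08 and 0.17. AP-1 and immediate early genes had a median of -0.43, and 1 of 21, Egr1, was 2-fold or more lower at 24.2 and 9.32 FPKM. Fosl1, an AP-1 subunit of activated keratinocytes, stood at 1.18 and 2.59 FPKM (0.72).

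**Figure D3:**
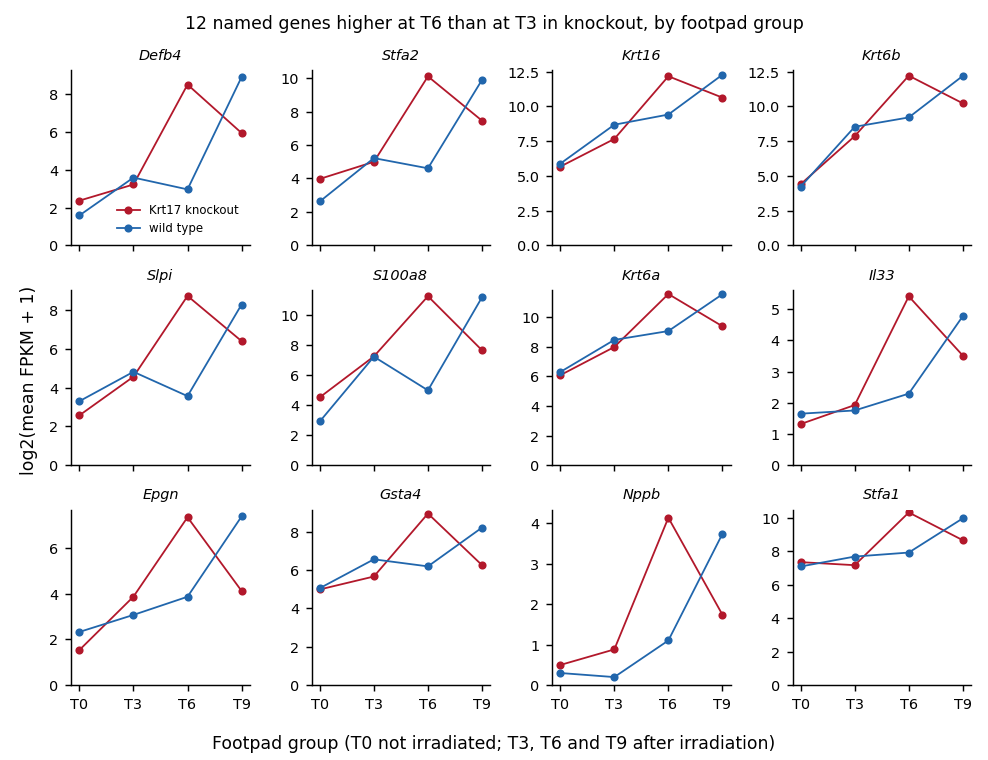
The y axes show log2(mean FPKM + 1) at T0, T3, T6 and T9 (x axis) for the 12 genes with the largest log2 ratio, T6 over T3, in knockout among genes at 5 FPKM or more, without numbered gene models and accession-like names such as BC100530, each with its own y scale starting at 0; lines join group means of 2 samples in Krt17 knockout and wild type, with no error known. In all 12 genes the knockout line peaks at T6 and the wild-type line at T9.

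Awat1, a wax ester synthase of sebaceous glands, stood at 85.0, 78.7, 10.1 and 17.9 FPKM across T0, T3, T6 and T9 in knockout (log2 ratio -2.84, T6 over T3). Elovl3, a fatty acid elongase of sebocytes, stood at 64.9, 42.5, 4.84 and 29.6 FPKM (-2.89). Fa2h, which makes 2-hydroxylated fatty acids, stood at 41.0, 17.9, 2.49 and 13.9 FPKM (-2.44), and Far2, which makes the fatty alcohols of wax esters, at 21.4, 11.5, 1.85 and 9.16 FPKM (-2.14). T6 was the lowest knockout group for all 4, and all 4 were higher again at T9. All 4 were 2-fold or more lower at T6 than at T3 in wild type too. The wild-type log2 ratios were -1.70 for Awat1, -1.55 for Elovl3, -1.20 for Fa2h and -1.23 for Far2. In knockout Scd1, a stearoyl-CoA desaturase, was at 48.3 and 17.9 FPKM (-1.39), and Scd3, its sebaceous relative, at 3.90 and 0.405 FPKM (-1.80). Of 12 sebaceous gland genes compared, 3 (25%, against 1.23% of all genes) were 2-fold or more lower. None was 2-fold or more higher, and the median was -0.66. The sum of that list was nevertheless higher at T6, 9487 against 5323 FPKM, because it holds Fabp5, which epidermis also makes. Of 22 cholesterol and fatty acid synthesis genes, 12 had a positive and 10 a negative ratio, with a median of 0.07, and 2 were 2-fold or more higher and 1, Scd1, lower. Idi1 stood at 25.0 and 64.9 FPKM (1.34) and Fdps at 68.6 and 144 FPKM (1.06), while Dhcr7, the last enzyme of cholesterol synthesis, stood at 59.5 and 34.2 FPKM (-0.78). The epidermal lipid barrier genes had a median of -0.26, and Elovl3 and Far2, which are also sebaceous, were the 2 of 16 that passed 2-fold, both downward. The ceramide synthase Cers3 was at 36.8 and 37.1 FPKM.

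The sole itself is hairless, and genes of the hair shaft were low in both groups. Of 14 hair shaft genes compared, 7 were 2-fold or more lower and 1, Krt36, was 2-fold or more higher, with a median of -0.93. That median was -0.03 with a filter of 5 FPKM, -0.56 with no filter and -1.63 with a pseudocount of 0.1 FPKM. Krt33b, a hair cortex keratin, stood at 2.64, 1.92, 0.0411 and 0 FPKM across T0, T3, T6 and T9. Krt86 stood at 3.05, 1.90, 0.104 and 0.0680 FPKM. Krtap11-1, a keratin-associated protein of the shaft, stood at 6.32, 6.27, 0.239 and 0.163 FPKM (log2 ratio -2.55, T6 over T3), and Krtap13-1 at 6.05, 5.33, 0.126 and 0.344 FPKM (-2.49). The keratin-associated protein genes were near their T0 level at T3, the keratins were somewhat below it, and all 4 were close to 0 at T6 and T9. In wild type Krtap11-1 was already at 1.63 FPKM at T3, from 6.72 FPKM at T0. Krt84, a keratin of the tongue and nail, was at 5.99 and 12.9 FPKM and stood just under the 2-fold line at 0.996. Tbx1, a transcription factor, was at 80.9 and 34.9 FPKM (-1.19). The eccrine gland genes had a median of -0.30, and none of 14 passed 2-fold.

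**Figure D4:**
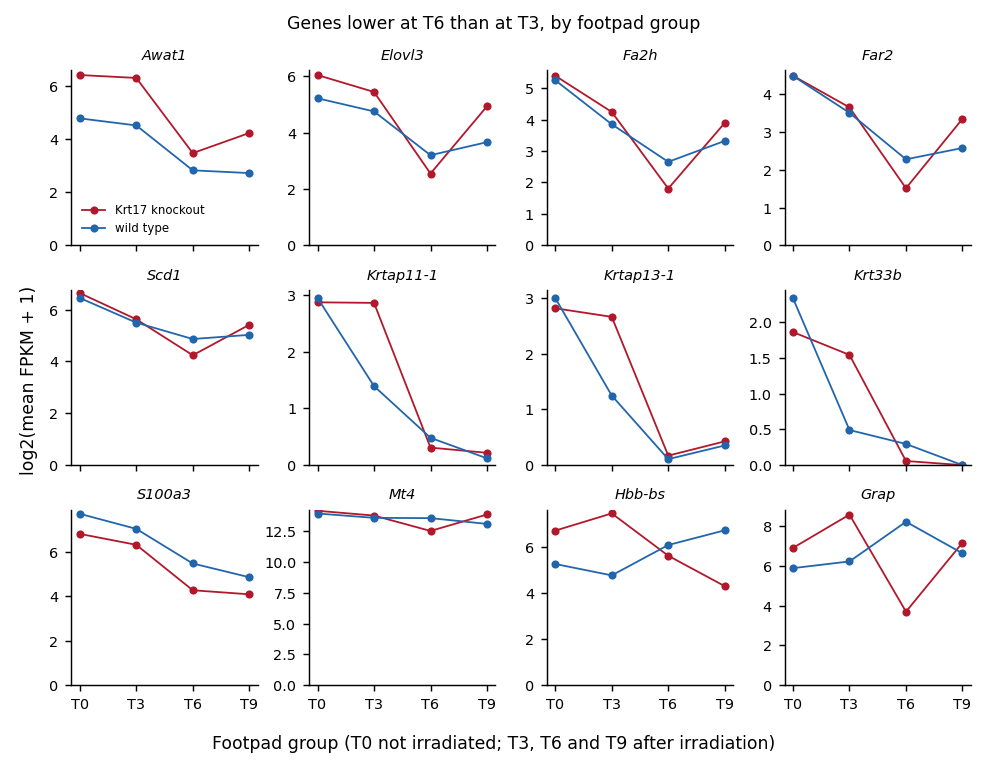
The y axes show log2(mean FPKM + 1) at T0, T3, T6 and T9 (x axis) for 12 genes lower at T6 than at T3 in knockout, each with its own y scale starting at 0; lines join group means of 2 samples in Krt17 knockout and wild type, with no error known. Sebaceous genes such as Awat1 and Elovl3 are lowest at T6 in knockout and are also lower at T6 than at T3 in wild type. The hair genes stay near 0 at T9, and Grap and Hbb-bs cross between the genotypes.

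Several of the other large negative ratios came from genes whose groups varied without order. Grap, which encodes an adaptor protein of lymphocytes, stood at 119, 382, 11.9 and 143 FPKM in knockout and at 58.1, 73.6, 297 and 98.2 FPKM in wild type (log2 ratio -4.89, T6 over T3 in knockout). Hnrnph1, a splicing factor, stood at 468, 515, 116 and 126 FPKM in knockout and at 97.5, 98.2, 588 and 105 FPKM in wild type (-2.13). Snora74a, a small nucleolar RNA, was at 16.3 FPKM at T3 in knockout and listed at 0 in the 7 other footpad groups, and Snurf was at 15.1 FPKM at T3 and listed at 0 at T6. In all, 7 genes stood 8-fold or more from all other footpad groups in 1 of the 2 groups compared. Serpina3j, a protease inhibitor of the antichymotrypsin family, followed an ordered course instead, at 40.7, 22.2, 1.04 and 11.8 FPKM (-3.50) in knockout and 28.2 and 5.79 FPKM at T3 and T6 in wild type. Ces4a, a carboxylesterase, was at 7.47 and 0.539 FPKM (-2.46).

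Blood and muscle genes differed between the groups as well, and are given because they mark other tissue in a skin sample. The haemoglobin genes Hbb-bs and Hba-a1 stood at 175.8 and 93.1 FPKM at T3 and at 48.3 and 30.2 FPKM at T6 in knockout, and 3 of 6 erythroid genes compared were 2-fold or more lower. The 8 erythroid genes found in the table summed to 355 FPKM at T3 and 117 FPKM at T6. In wild type the sums ran the other way, 76.9 and 155 FPKM. Skeletal muscle genes summed to 1523 FPKM at T3 and 1206 FPKM at T6 in knockout, against 558 FPKM at T0, and 1 of 17 was 2-fold or more lower. The part of blood or muscle content in the differences above was not tested.

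Cell cycle genes were partly higher. Of 30 DNA replication genes compared, 28 had a positive ratio and 6 were 2-fold or more higher, with a median of 0.51. Mcm3, a subunit of the replicative helicase, stood at 27.8, 9.43, 27.1 and 37.2 FPKM across T0, T3, T6 and T9 (log2 ratio 1.43, T6 over T3), and Ccne2, cyclin E2, at 7.31, 1.12, 5.45 and 10.4 FPKM (1.61). Both were lower at T3 than at T0 and, at T6, closer to the T0 level than to that of T3. Mitosis genes moved less: 27 of 30 had a positive ratio, none passed 2-fold and the median was 0.28. Cdk1 was at 30.5, 17.01, 31.4 and 69.0 FPKM, and Mki67 at 9.25, 4.15, 4.96 and 15.48 FPKM. Both were higher at T9 than at T6. The p53 targets, which respond to DNA damage, had a median of -0.01 (0.05 with rescaled groups), with 1 of 38 passing 2-fold in each direction. That is 2.63% each way, near the 1.8% and 1.23% of all genes. Cdkn1a, the cell cycle inhibitor p21, stood at 136 FPKM at T0 and at 326, 322 and 317 FPKM at T3, T6 and T9. The pro-apoptotic genes Pmaip1 and Bbc3 went apart, with 2.52 and 6.41 FPKM for Pmaip1 (1.08) and 20.2 and 8.25 FPKM for Bbc3 (-1.20).

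Genes of dermis, vessels and immune cells gave small positive medians. Fibrillar and matrix genes had a median of 0.38, and 2 of 23, Col6a3 and Lum, were 2-fold or more higher. That is 8.70%, against 1.8% of all genes, and rests on these 2 genes. Col1a1 was at 18.03 and 21.5 FPKM. In wild type 11 of 23 matrix genes were 2-fold or more higher over the same interval, against 2.32% of all genes there, with a median of 0.99. Tenascin C (Tnc), a matrix protein of wounds, was at 2.07 and 8.57 FPKM in knockout (log2 ratio 1.64), the matrix protease gene Mmp3 at 2.91 and 12.02 FPKM (1.74), and the protease inhibitor gene Timp1 at 5.72 and 15.3 FPKM (1.28). Of 20 macrophage genes, 18 had a positive ratio in knockout, with a median of 0.70. Only 2 (10%), Ms4a7 and Spp1, were 2-fold or more higher. The FPKM of that list nevertheless summed to 1799 at T3 and 1547 at T6. In wild type, T6 over T3, 6 of 19 macrophage genes (median 0.76) and 5 of 15 endothelial genes (median 0.85) were 2-fold or more higher. In knockout the median was 0.26 over 16 endothelial genes and 0.84 over 6 melanocyte genes. Of the latter, Mlana, a melanosome protein, was at 3.39 and 10.8 FPKM (1.43). The melanocyte median was 0.36 with a filter of 5 FPKM, 0.20 with no filter and 1.06 with a pseudocount of 0.1 FPKM. Most T and B cell genes did not reach 1 FPKM. Dsc2, a desmosomal cadherin of the upper layers and of mucosa, was at 2.87 and 15.6 FPKM (2.103), and Gjb2, the gap junction protein connexin 26, at 129.8 and 269 FPKM (1.04), whereas the median over 21 desmosome and junction genes was -0.23. Of the 51 gene lists, 3 had a median past 2-fold: wound keratins (3.97) and neutrophil (1.29) upward and erythroid (-1.02) downward. The neutrophil median is the ratio of Stfa2l1, listed at 0 at T3, and it was -0.033 with no filter on low values. The erythroid median was -0.97 with rescaled groups and -0.41 with no filter.

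**Figure D5:**
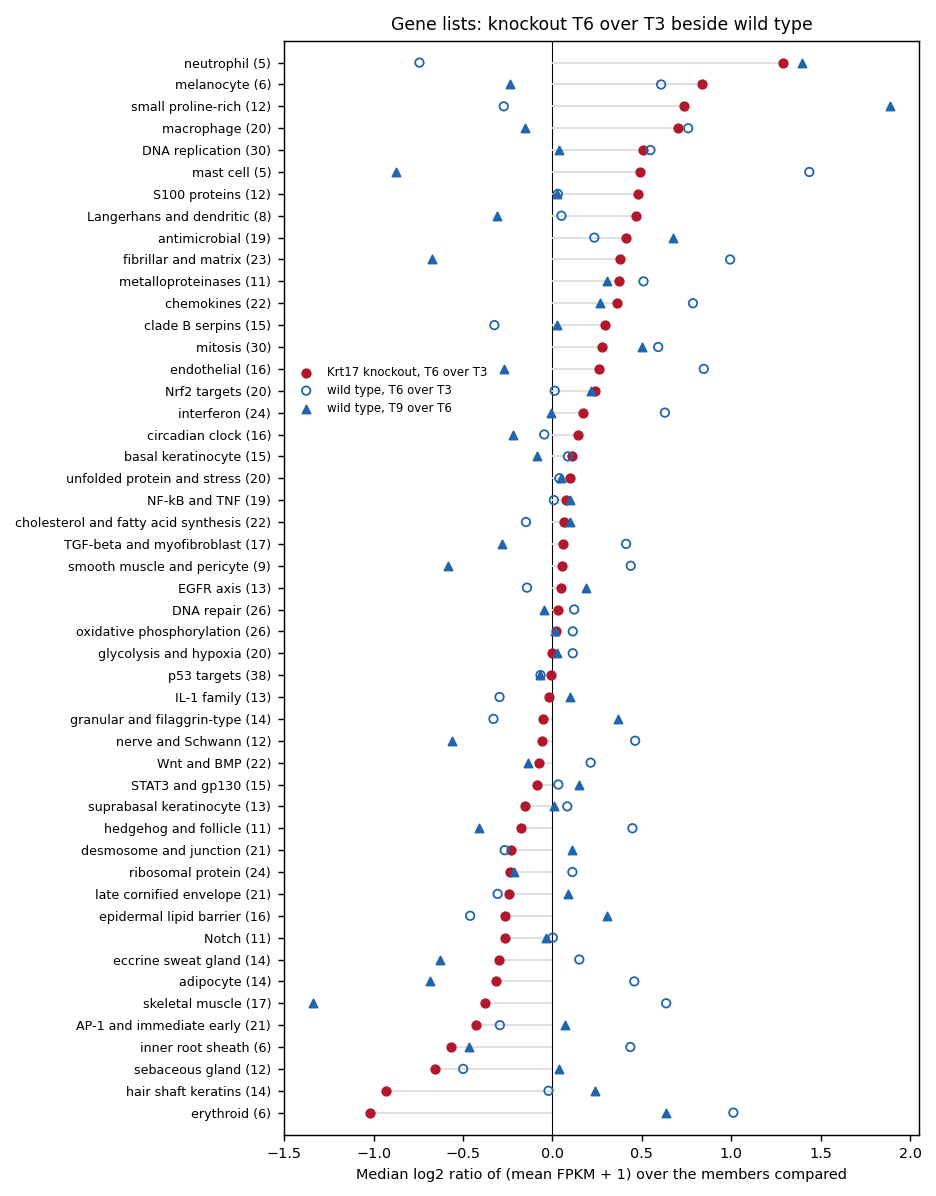
The x axis shows the median log2 ratio of (mean FPKM + 1) over the members compared (number in brackets) of each list with at least 5, for Krt17 knockout T6 over T3 (filled circles), wild type T6 over T3 (open circles) and wild type T9 over T6 (triangles). Small proline-rich genes are at 0.74, -0.27 and 1.89 in these 3 comparisons, matrix genes at 0.38, 0.99 and -0.67, and erythroid genes at -1.02, 1.012 and 0.63.

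Several further genes of the activated set lie outside the naming rule and were chosen after their values were seen. Tslp, an epithelial cytokine that acts on dendritic cells, stood at 0.389, 0.724, 9.91 and 1.51 FPKM across T0, T3, T6 and T9 in knockout (log2 ratio 2.66, T6 over T3). Fscn1, the actin-bundling protein fascin, stood at 2.43, 1.65, 16.9 and 7.74 FPKM (2.76), and Pdpn, the membrane glycoprotein podoplanin, at 1.37, 1.76, 12.3 and 5.33 FPKM (2.27). Tubb6, a beta-tubulin, was at 12.1, 16.9, 69.9 and 24.3 FPKM (1.99). All 4 peaked at T6 within the knockout. In wild type Pdpn stood at 1.49, 3.17 and 11.3 FPKM at T3, T6 and T9. Differences of this size also occurred without order, as for Ece1, at 18.7 and 114 FPKM in knockout at T3 and T6 but at 446 and 103 FPKM in wild type. Among the lower genes, Mgll, a monoacylglycerol lipase, was at 30.5 and 8.41 FPKM (-1.74), and Fkbp5, a glucocorticoid-responsive chaperone, at 19.6 and 5.22 FPKM (-1.73).

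The knockout step was set beside the 2 wild-type steps, which share no groups with it. From T3 to T6 in wild type, 297 of 12828 genes (2.32%) were 2-fold or more higher and 99 (0.772%) were lower. From T6 to T9 in wild type, 208 of 12875 genes (1.62%) were higher and 164 (1.27%) were lower. Overlaps were counted among genes that passed the 1 FPKM limit and the rule for zeros in both comparisons. That left 173 of the 234 higher and 110 of the 160 lower knockout genes for wild type T6 over T3. For wild type T9 over T6 it left 200 and 96. In the knockout step and in wild type T6 over T3, 31 were 2-fold or more higher, which is 17.9% of 173 knockout genes and 11.5% of 269 wild-type genes. Without the limits on the wild-type side, 33 of the 234 were 2-fold or more higher in wild type T6 over T3. For wild type T9 over T6 the shared number was 89, which is 44.5% of 200 knockout genes and 54.3% of 164 wild-type genes. As a baseline, the wild-type genes counted as higher were 269 of 12497 for T6 over T3. For T9 over T6 they were 164 of 12525. Across genes, Pearson's r was 0.257 and Spearman's rho 0.335 with wild type T6 over T3 (12497 genes), and r was 0.400 and rho 0.210 with wild type T9 over T6 (12525 genes). These coefficients describe genes, which are not independent, and the 2 measures order the wild-type steps differently. The lower genes showed another pattern: 24 were shared with wild type T6 over T3, 21.8% of 110 and 39.3% of 61, and 10 with wild type T9 over T6, 10.4% of 96 and 7.30% of 137. The baseline for lower genes in wild type was 61 of 12497 for T6 over T3 and 137 of 12525 for T9 over T6.

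The same groups were compared for the 12 genes plotted above, which have the largest ratios under that limit on names and level; BC100530 (3.54) and BC117090 (3.18) are not among them. At T6 in knockout, 12 of 12 were within 2-fold of wild type at T9 and 0 of 12 were within 2-fold of wild type at T6. The 12 genes with the most negative ratios under the same limit differed in this: 9 were within 2-fold of wild type at T6 and 7 within 2-fold of wild type at T9. In wild type, 0 of the 12 plotted genes were 2-fold or more higher at T6 than at T3 and 2 were 2-fold or more lower (Slpi and S100a8). All 12 were 2-fold or more higher at T9 than at T6 in wild type. Of the 12 genes with the most negative ratios, 8 were 2-fold or more lower in wild type at T6 than at T3 and 2 were higher. S100a8 stood at 6.56, 150.1, 30.8 and 2354 FPKM across T0, T3, T6 and T9 in wild type, and Defb4 at 1.998, 11.04, 6.80 and 482 FPKM. Epgn stood at 3.997, 7.38, 13.5 and 165 FPKM in wild type. Of all 234 genes 2-fold or more higher at T6 in knockout, 183 were within 2-fold of wild type at T9 and 87 were within 2-fold of wild type at T6. Of the 160 lower genes, 137 were within 2-fold of wild type at T9 and 131 within 2-fold of wild type at T6. The same counts over all 12988 genes were not made, so these counts have no baseline and show no resemblance by themselves. The median FPKM of the lower genes was 0.625 in knockout at T6, and 1.44 and 1.09 in wild type at T6 and T9. At such levels the scale understates differences. Compared with T0, 181 of the 234 were also 2-fold or more higher at T6, and 29 had already been 2-fold or more higher at T3. By T9 in knockout, 67 of the 234 were still 2-fold or more above T3, while 112 were 2-fold or more below T6. The FPKM sum of the 234 genes was 9196, 10664, 57793 and 22547 in knockout at T0, T3, T6 and T9, and 9177, 12749, 14715 and 53663 in wild type. The 234 genes, and the 12 plotted, were chosen for higher values at T6 than at T3 in knockout. A knockout peak at T6, and the knockout counts against T0 and T9, therefore follow in part from that choice. The counts within 2-fold of wild type at T6 or T9 use the same knockout T6 values, so they depend on that choice too. The 160 lower genes, and the 12 with the most negative ratios, were likewise chosen for lower values at T6.

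By position, 15 of 62 genes compared (24.2%) in the epidermal differentiation complex, the cluster of envelope and S100 genes on chromosome 3 (chr3:90511034-93564643), were 2-fold or more higher and 1, S100a3, was lower; Tchh, counted among the 15, was listed at 0 at T3 in both genotypes. In the type I keratin cluster (chr11:99315516-100261029) 4 of 28 genes were higher and 11 were lower, among them the hair keratins Krt31, Krt33a, Krt33b and Krt34, Krt25 of the inner root sheath and 4 keratin-associated protein genes. Krt17, whose knockout signal is uncertain, is among the 4 higher genes of that cluster. In the type II cluster (chr15:101347444-102032027) 3 of 20 were higher and 4 were lower. Of the clade B serpins on chromosome 1, protease inhibitors of epithelia, 1 of 11 was higher. Over all 12988 genes compared, 1.8% were 2-fold or more higher and 1.23% were lower. A single gene of 11 is too few to set against these shares. By gene type, 80.8% of the higher genes and 73.1% of the lower genes were protein coding, against 94.1% of all genes compared. Gsta1, at 15.496 and 32.1 FPKM, was the gene just past 2-fold higher, and Mlkl, at 1.63 and 4.26 FPKM, the one just short of it. Acot5, at 2.78 and 0.892 FPKM, was just past 2-fold lower and Krt9 just short of it. At the limit of 1 FPKM, Il12rb2 with 1.00056 FPKM at T3 was compared and Clec2l, with 0.891 FPKM at T3 and 0.999 FPKM at T6, was not.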

How the data were processed

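RNA of footpad skin was sequenced in 2 samples per group. The deposited footpad table holds the authors' FPKM values as 1 mean per group, with 47633 genes and 8 groups. TopHat2 2.1.0, Cufflinks 2.2.1 and the build mm10 are named in the submitters' processing notes; the annotation release, the strand setting and the way samples were averaged are not given in the sources used here. The back skin table was not used here.

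For each gene with at least 1 FPKM at T3 or T6 in knockout, the log2 ratio of (mean FPKM + 1) was computed, and a gene was counted at 2-fold or more. Symbols on several lines (116) were left out. A gene listed at 0 in 1 of the groups while its median over the others was 5 FPKM or more was treated as missing (6 genes). With means only, no test was possible. Named genes were Krt17, the wound keratins, the 12 largest ratios in each direction among genes at 5 FPKM or more (without numbered gene models, names resembling accessions and predicted pseudogenes), and the 6 members of each of 51 lists with the largest ratios; other names were chosen after their values were seen. The members and lists were chosen with earlier results of these data known. Positions came from GENCODE release M21 (GRCm38, the assembly mm10), which holds 47217 of the identifiers. Of the 12 largest positive and 12 largest negative ratios, 7 and 8 genes had a RefSeq promoter. The counting was tested on simulated data. Each count was repeated with 0.1 FPKM as pseudocount, without the filter, with a filter of 5 FPKM, with rescaled groups, with zeros kept, and without genes standing apart in 1 group. Python 3.11.15, numpy 2.4.6, pandas 2.3.3 and matplotlib 3.10.9 were used.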

Additional observations from a re-analysis of the deposited data

Results flagged for a closer look

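For 9 genes named in the text, the log2 ratio of (mean FPKM + 1), T6 over T3, was 2-fold or more in one direction in Krt17 knockout and 2-fold or more in the other in wild type. The direction of single samples is not known and the differences were not tested. Slpi was at 4.17 in knockout and -1.25 in wild type, S100a8 at 4.02 and -2.25, and S100a9 at 2.33 and -1.24. Lce3b was at 2.34 in knockout and -3.05 in wild type, and Lce3a at 1.94 and -2.20. These 5 genes of defence and envelope had a local maximum at T3 in wild type: S100a8 stood at 6.56, 150.1 and 30.8 FPKM at T0, T3 and T6, and Lce3b at 0.778, 18.5 and 1.36 FPKM.

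Grap was at -4.89 in knockout and 1.998 in wild type, and Hnrnph1 at -2.13 and 2.57. The haemoglobin genes Hbb-bs, at -1.84 in knockout and 1.32 in wild type, and Hba-a1, at -1.59 and 1.08, moved together. The erythroid list summed to 243 FPKM at T0 in knockout and 99.6 FPKM at T0 in wild type, so the groups differed before irradiation too. The part of blood content was not tested.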

How the results depend on the processing

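The 234 higher and 160 lower genes became 461 and 328 with a pseudocount of 0.1 FPKM, which contains all genes counted before, and 149 and 75 with a filter of 5 FPKM, which tests fewer genes. Rescaling the groups by their median ratio gave 257 and 143, moving the share of higher genes among those counted from 59.4% to 64.3% and the median of all genes from -0.06 to -0.01. Counts were 234 and 160 with no filter, 237 and 163 with zeros kept, and 232 and 155 without the 7 genes that stood apart in 1 group. The median of the neutrophil list changed sign to -0.033 with no filter, which adds members near 0. The erythroid median fell short of 2-fold at -0.97 with rescaled groups and -0.41 with no filter. The hair shaft and melanocyte medians moved as given beside them. The filter of 5 FPKM moved the EGF axis median to -0.33 and the NF-kB median to -0.12. With rescaling the p53 median was 0.05 and the granular median 0.01, and Cd68, Lce3c and Lce3f passed 2-fold upward. With the lower pseudocount 30 named genes newly passed 2-fold, among them Krt9 downward and Fosl1 upward. No ratio of a single named gene changed sign past 2-fold under these alternatives. No paired analysis was possible because the table holds 1 mean per group and no single samples; for the same reason, leaving out each replicate was not run. The number of reads is not known, so no detection limit could be given.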
